A study of Mus musculus with 12 samples.

Results

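The piRNAs described are the sequences of 31 and 32 nt that begin with U and do not carry A at base 10. They were picked by letter and length alone from all sequences of the deposited piRNA table, and are called the members. There were 75962 of them among 1018402 sequences, 51804 of 31 nt and 24158 of 32 nt. The testes were those of male mice of the C57BL/6 strain, 4 months of age. Each input of 10, 50 and 100 ng of total RNA was sequenced after oxidation with sodium periodate and before it, as 2 technical replicates, which gave 12 libraries in 6 groups. All libraries used the low-input protocol that the labels call 10ng-seq, the volume of spike-in RNA followed the input, and small RNAs of 17 to 40 nt were sequenced. The series asks how well oxidation and low-input sequencing detect small RNAs with a methylated 3′ end. The mice carried no stated allele or treatment, and no label ties a library to a mouse, so the p-values below measure only the spread between libraries.

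piRNAs are small RNAs that guide PIWI proteins in the germ line, and in the adult testis most are pachytene piRNAs cut from long, mostly non-coding precursors. Their first base is usually U, which sits in a pocket of the PIWI protein, and an A at base 10 is the mark left by ping-pong cutting, which the members lack. The 3′ end is trimmed back by PNLDC1 and then closed by HENMT1 with a 2′-O-methyl group. Periodate opens the terminal ribose of RNAs without that group and blocks their ligation to an adapter. MIWI, the PIWI protein of late meiotic and round spermatid stages, binds longer piRNAs than MILI does, and 31 and 32 nt lie at the long end of the range.

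The sequences that the results turn on are shown first, because their 2 ends carry the features compared below. They are placed on GRCm38 by a full match to a single place in GENCODE M21 transcripts, and are named after the annotated gene, the length and a running number. Capitals mark base 1, base 10 and the last base, and U is written as T. The first 3 were higher after oxidation, the next 4 were lower, and the last 2 were absent or low after oxidation in the 10 ng libraries.
Gm21269-32-5 (chr7:73819463-73819494, plus strand, exon of a lincRNA): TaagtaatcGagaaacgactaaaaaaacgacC
Gm10619-31-12 (chr7:73809730-73809760, minus strand, exon of a lincRNA): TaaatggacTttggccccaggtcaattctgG
Gm10619-32-6 (chr7:73809729-73809760, minus strand, the same start, 1 base longer): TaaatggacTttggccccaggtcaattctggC
Nemp1-31-2 (chr10:127694597-127694627, plus strand, coding exon): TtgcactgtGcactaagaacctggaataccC
Nemp1-32-13 (chr10:127694597-127694628, plus strand, the same start, 1 base longer): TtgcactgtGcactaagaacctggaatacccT
Gm21269-31-16 (chr7:73820195-73820225, plus strand, exon of a lincRNA): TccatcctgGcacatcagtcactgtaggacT
1700042G15Rik-32-15 (chr4:57361276-57361307, minus strand, exon of a lincRNA): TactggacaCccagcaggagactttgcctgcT
1700001L05Rik-31-1 (chr15:83355249-83355279, minus strand, exon of a lincRNA): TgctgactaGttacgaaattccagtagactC
Gm31181-31-18 (chr10:66705782-66705812, plus strand, exon of a lincRNA): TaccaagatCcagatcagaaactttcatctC

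The libraries rested on 1924201 to 3347735 reads each, recovered from the deposited RPM, the level of a sequence relative to all reads counted by the authors, so that 1 read was worth 0.299 to 0.520 RPM. The members held 184457 to 400961 reads per library after oxidation and 257303 to 336830 before it. Germ-cell miRNAs of the testis were all detected before oxidation (11 of 11, summing to 41068 to 49860 RPM, against 25.8 to 56.5 RPM after oxidation). Smooth muscle miRNAs summed to 8940 to 13625 RPM before oxidation, Sertoli cell miRNAs to 105 to 200 RPM, and those of blood and liver to at most 1.55 and 6.07 RPM. Methylated spike-ins took 212579 to 300939 reads per library after oxidation and 28325 to 42523 before, and unmethylated ones 7 to 25 reads after and 4123 to 15750 before. The 2 libraries of 10 ng after oxidation stood apart: across tested members their log2(RPM + 1) values correlated at r = 0.50, against 0.79 to 0.94 between the replicates of the other 5 groups. Results are therefore also given by input and without the 10 ng libraries. The RNA came from whole testis and the groups differ in oxidation and RNA input, so no level per cell is given.

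As a share of the piRNA table the members together were nearly the same after and before oxidation, and the mix of the 2 lengths shifted. After oxidation they held 11.1 and 10.9% of piRNA RPM with 10 ng, 13.0 and 12.65% with 50 ng and 13.1 and 13.2% with 100 ng. Before oxidation they held 12.2 and 12.01% with 10 ng, 12.4 and 12.5% with 50 ng and 12.56 and 12.5% with 100 ng. The 10 ng libraries after oxidation were the lowest of the 12, and the other 4 after oxidation were above all 6 from before. The means were 12.3 ± 1.05% after oxidation and 12.4 ± 0.22% before it (SD, n = 6 each; exact permutation within inputs, 2-sided p = 0.944, adjusted over 4 values 0.944). Without the 10 ng libraries the difference was 0.506 percentage points, with the higher value after oxidation.

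The 31 nt members held 9.53 ± 0.508% of piRNA RPM after oxidation and 9.33 ± 0.091% before it (adjusted p = 0.284, same exact permutation test, n = 6 each). The 32 nt members held 2.81 ± 0.548% after oxidation and 3.03 ± 0.137% before it (adjusted p = 0.284, same exact test). Per library, 32 nt members held 2.14 and 2.11% after oxidation with 10 ng, 3.16 and 2.88% with 50 ng and 3.24 and 3.32% with 100 ng. Before oxidation they held 2.87 and 2.85% with 10 ng, 3.07 and 3.09% with 50 ng and 3.15 and 3.15% with 100 ng. The 10 ng libraries after oxidation thus lay far below all others. The ratio of 32 nt to 31 nt RPM averaged 0.293 ± 0.044 after oxidation and 0.325 ± 0.012 before it, lower after oxidation in 6 of 6 same-numbered pairs. Its log2 difference was -0.16 (exact permutation p = 0.00926, the smallest these permutations can give, adjusted 0.037). By input, the mean ratio after oxidation was 0.240 with 10 ng, 0.308 with 50 ng and 0.332 with 100 ng, against 0.310, 0.329 and 0.336 before. Without the 10 ng libraries the log2 difference was -0.06 (exact permutation p = 0.0556, the smallest that 8 libraries allow, adjusted 0.0741). It no longer passed when 1 library was left out from among the first of 100 ng after oxidation and those of 50 and 100 ng before it, with log2 differences of -0.18 to -0.14 over all 12 such fits.

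**Figure D1:**
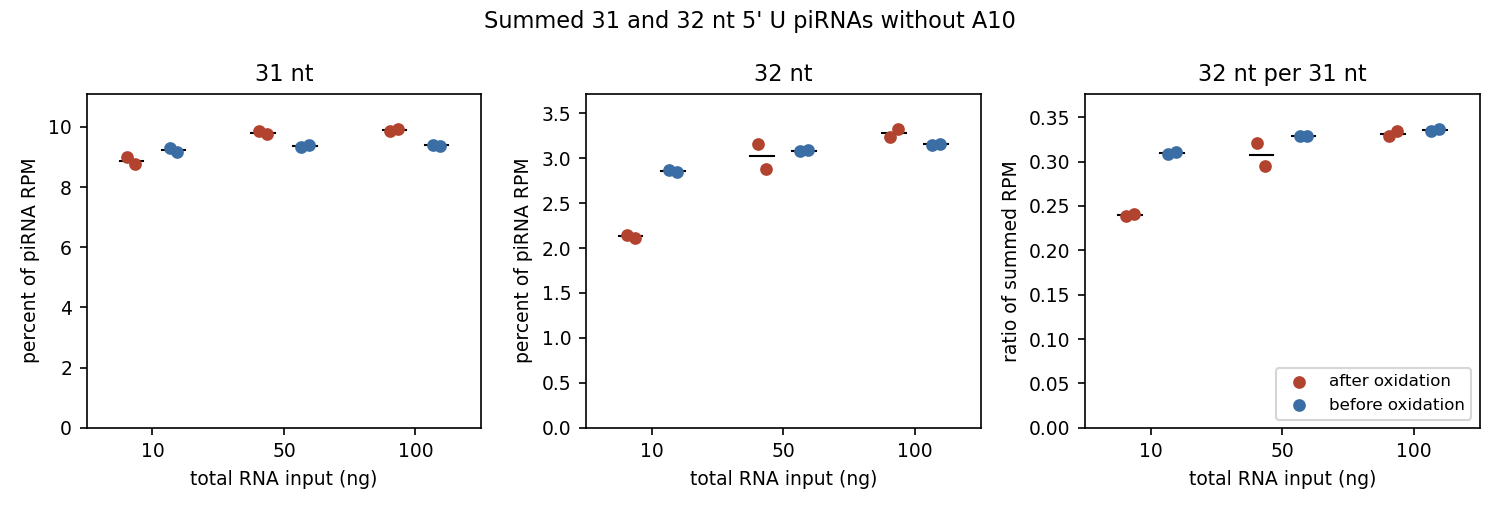
Summed 31 nt members, summed 32 nt members (both in percent of piRNA RPM) and the ratio of 32 nt to 31 nt RPM, by total RNA input in ng. Each point is 1 library and each bar the mean of 2 replicates; the ratio after oxidation is lowest at 10 ng (0.240) and nears that before oxidation at 100 ng (0.332 against 0.336).

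The neighbouring lengths frame this shift. Sequences of 29 and 30 nt of the same kind held 28.1 ± 0.41% of piRNA RPM after oxidation and 25.9 ± 0.331% before it, higher after in 6 of 6 pairs. Those of 33 nt held 0.624 ± 0.215% after oxidation and 0.850% before it, lower after in 6 of 6 pairs. These values are given as a description, with no test. On the deposited RPM scale, on which the loss of miRNA reads raises every piRNA, the members summed to 112322 RPM after oxidation and 99525 RPM before it. Per 100 reads of methylated spike-ins they summed to 124 reads after oxidation and 822 before it, so a direction for their amount depends on the scale.

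The members were next divided by their last base. Members ending in G fell after oxidation at both lengths, those ending in C rose, and those ending in A and U followed the input. These directions are shares of the piRNA table; scaled to the methylated spike-ins, all 8 classes by length and last base were lower after oxidation. The 32 nt members ending in G held 0.093 and 0.073% of piRNA RPM after oxidation with 10 ng, 0.129 and 0.117% with 50 ng and 0.134 and 0.140% with 100 ng. Before oxidation they held 0.163 and 0.168% with 10 ng, 0.208 and 0.203% with 50 ng and 0.228 and 0.237% with 100 ng. The 2 groups of 6 did not overlap, and in both the value was lowest at 10 ng. 1 sequence of this class, the sixth highest member before oxidation, averaged 332 RPM after oxidation and 876 RPM before it. It made up much of the class before oxidation and most of its fall. The class was not fitted without this sequence. The log2 fold change averaged over inputs was -0.84 ± 0.06 (SE; limma-trend fitted over 307 classes of the table, adjusted p = 2.5e-07).

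The 31 nt members ending in G held 0.541 to 0.633% after oxidation and 0.707 to 0.744% before it, again with no overlap (log2 fold change -0.29 ± 0.02, limma-trend). The 31 nt members ending in C held 3.84 to 4.03% after oxidation and 3.59 to 3.68% before it, with no overlap and the higher values after oxidation (log2 fold change 0.10 ± 0.01). The 32 nt members ending in C held 0.868 to 1.03% after oxidation and 0.836 to 0.929% before it (log2 fold change 0.11 ± 0.01). These 2 ranges overlapped, and within each input both libraries after oxidation lay above both from before. Of the 307 classes, 12.1% lay wholly above and 31.6% wholly below their level before oxidation, so non-overlap was not rare in the table.

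Members ending in U moved with input. The 32 nt members ending in U held 0.991 and 0.999% of piRNA RPM after oxidation with 10 ng, 1.77 and 1.48% with 50 ng and 1.82 and 1.89% with 100 ng. Before oxidation they held 1.61 and 1.58% with 10 ng, 1.68 and 1.69% with 50 ng and 1.70 and 1.71% with 100 ng. After oxidation they were thus far lower at 10 ng and higher at 100 ng than before it. 1 sequence of this class, the highest member, had 4129 and 4442 RPM after oxidation with 100 ng and 2381 and 2325 RPM before it. As a share of piRNA RPM, its rise with 100 ng was no smaller than that of the class. The class was not fitted without this sequence. The log2 fold change of the class was -0.68 at 10 ng, where limma-trend called it, and 0.12 at 100 ng, where it did not. The 32 nt members ending in A fell at 10 ng (log2 fold change -0.53, limma-trend) and did not pass at 50 or 100 ng. Averaged over inputs, 3 of the 8 member classes were higher after oxidation, against 26.7% of all classes, and 4 were lower, against 53.7% of all classes. At 10 ng 1 was higher and 6 were lower (background 30.3% and 47.9%), at 50 ng 3 were higher and 2 lower (background 16% and 41.7%), and at 100 ng 4 were higher and 2 lower (background 13.4% and 41%). Without the 10 ng libraries, 4 were higher (31 nt ending in A, C or U and 32 nt ending in C) and 2 were lower (both ending in G), against 22.8% and 58% of all classes.

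The interaction of oxidation with input passed for 5 of the 8 classes, against 40.1% of all classes (limma-trend F test). They were 31 nt ending in A (adjusted p = 0.00204), G (0.0486) and U (0.00077), and 32 nt ending in A (0.00236) and U (0.00027). It did not pass for those ending in C or for 32 nt ending in G. After oxidation, 7 of the 8 classes were lower at 10 ng than at 100 ng, against 27% of all classes. The largest of these log2 fold changes were -0.90 for 32 nt ending in U and -0.73 for 32 nt ending in G, and the 31 nt members ending in C (0.01) did not pass. Before oxidation, 32 nt ending in C (-0.14) and in G (-0.49) were lower at 10 ng than at 100 ng (2 of 8, against 6.19% of all classes). The first and sixth highest members before oxidation belong to the 32 nt classes ending in U and in G. Both sequences were lower at 10 ng than at 100 ng, after oxidation and before it. As a share of piRNA RPM, the difference of the sixth highest member between these inputs was no smaller than that of its class, in both states. The lower level of 32 nt members ending in G at 10 ng is therefore not shown for the rest of that class. The classes were not fitted without them.

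**Figure D2:**
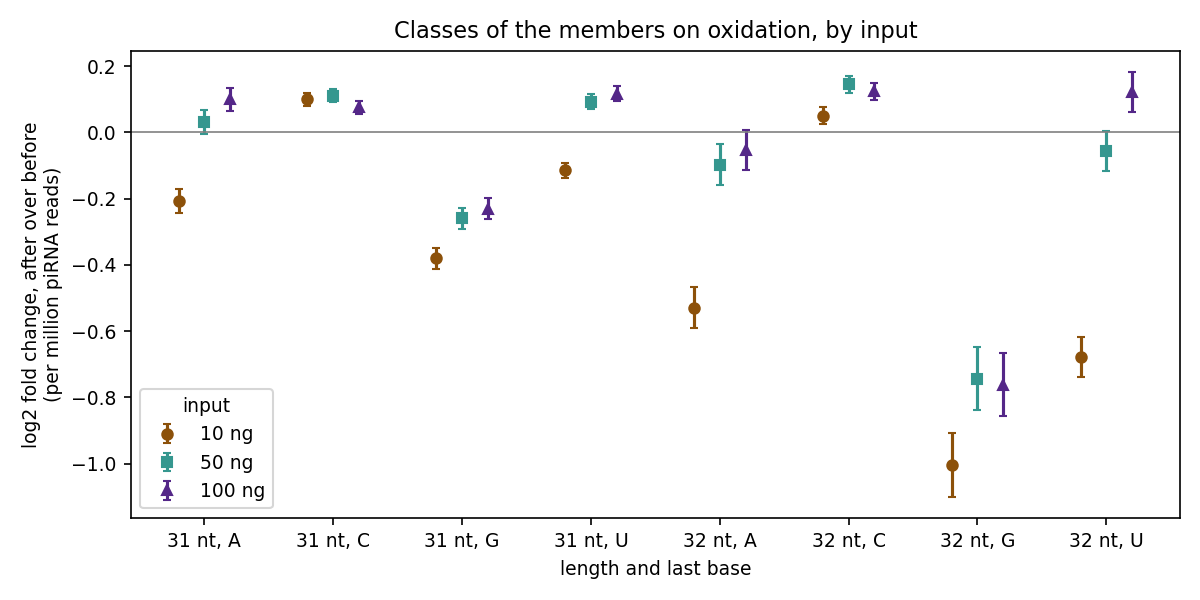
Log2 fold change after over before oxidation of the 8 member classes by length and last base, scaled to the piRNA reads of each library, at 10, 50 and 100 ng. Bars are the standard error of the limma-trend fit; classes ending in G lie below 0 at every input, and 32 nt ending in U lies at -0.68 at 10 ng and at 0.12 at 100 ng.

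Read as the make-up of one length, G closed 4.05 ± 0.30% of 32 nt member RPM after oxidation and 6.61 ± 0.721% before it. C closed 35.0 ± 4.91% of it after oxidation and 29.4 ± 0.223% before it, with 40.5 and 41.2% in the 10 ng libraries after oxidation. The 32 nt share of G includes the sixth highest member before oxidation, named above. Among 31 nt members G closed 6.27 ± 0.161% after oxidation and 7.82 ± 0.083% before it. All 30 nt sequences of the same kind ended in G for 11.3% of their RPM after oxidation and 14.1% before it, so the lower share of G is not particular to the members.

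Single members showed wide and opposite responses. Of the 75962 members, 2866 (2231 of 31 nt and 635 of 32 nt) had a mean of at least 5 RPM over the 12 libraries and were tested among the 22726 sequences of the table that passed. They were 3.77% of the members and held 71.9% of their RPM. Of the 2866, 645 reached 5 RPM only in the mean after oxidation and 314 only in that before it, so their counts say nothing of members below the threshold. Averaged over inputs, 656 tested members rose, against 21.2% of all tested sequences, and 673 fell, against 22.8% (limma-trend on log2(RPM + 1), adjusted p below 0.05 over 22726 sequences). These are 22.9% and 23.5% of the tested members, near the background. Scaling moved this split: edgeR called 468 higher and 945 lower, DESeq2 448 higher and 1140 lower, and a scale set by the methylated spike-ins 35 higher and 2469 lower. The median log2 fold change of all tested sequences was -0.14 on the RPM scale, -0.40 with edgeR, -0.64 with DESeq2 and -2.76 with the spike-ins.

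At 10 ng 603 members rose, against 21.4% of all tested sequences, and 968 fell, against 31.5%. At 50 ng 208 rose (background 5.77%) and 95 fell (background 3.44%). At 100 ng 63 rose (background 1.91%) and 47 fell (background 2.16%). As shares of the tested members these are 21.04% and 33.8% with 10 ng, 7.26% and 3.31% with 50 ng and 2.20% and 1.64% with 100 ng. The median log2 fold change of the members was -0.83 with 10 ng, 0.25 with 50 ng and 0.37 with 100 ng, beside -0.69, 0.20 and 0.25 over all tested sequences. For 32 nt members it was -1.37 with 10 ng, 0.15 with 50 ng and 0.31 with 100 ng, and for 31 nt members -0.70, 0.29 and 0.40. Of the 303 members called at 50 ng, 266 were also called at 10 ng (87.8% of the calls at 50 ng and 16.9% of those at 10 ng), 257 in the same direction and 9 in the opposite one. Of the 110 called at 100 ng, 88 were also called at 50 ng (80.0% of the calls at 100 ng and 29.04% of those at 50 ng), all in the same direction. Of these 110, 89 were also called at 10 ng (80.9% of the calls at 100 ng and 5.67% of those at 10 ng), 78 in the same direction and 11 in the opposite one. Over all tested sequences, 90.3% of the calls at 50 ng were also called at 10 ng, 84.4% of those at 100 ng at 50 ng and 88.9% of those at 100 ng at 10 ng.

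**Figure D3:**
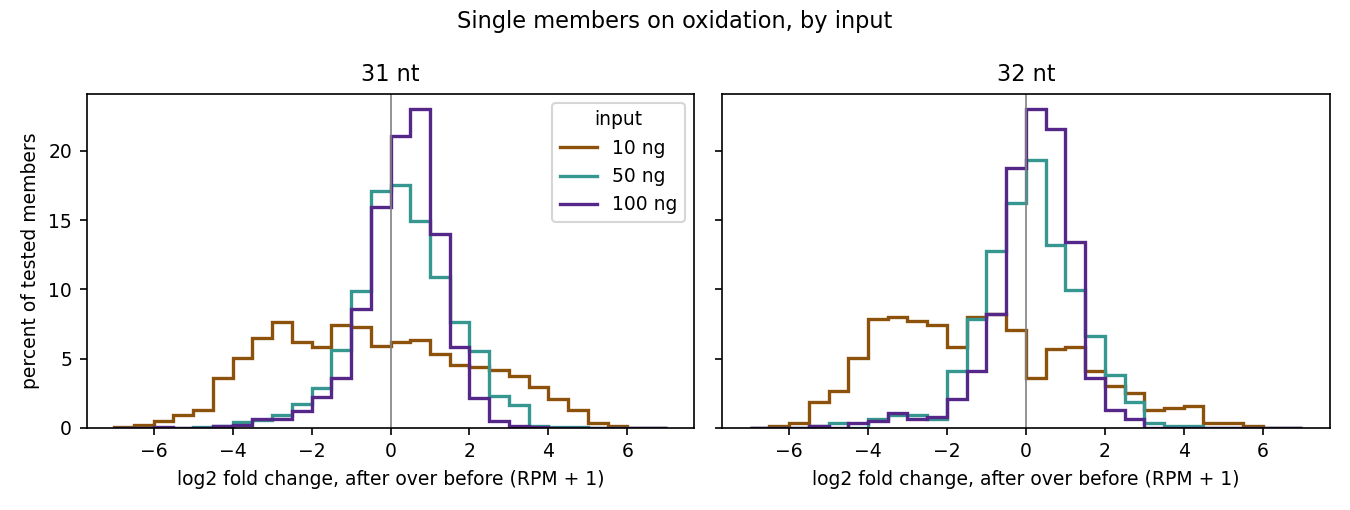
Distribution of the log2 fold change after over before oxidation (RPM + 1) over the 2231 tested 31 nt members and the 635 tested 32 nt members, in percent of members, at each input. The 10 ng curves are the widest and their medians lie lowest, at -0.70 for 31 nt and -1.37 for 32 nt.

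How many members were called rested on the 10 ng libraries. Without them, averaged over 50 and 100 ng, 865 members rose (background 24.6%) and 338 fell (background 13.1%). Leaving out either 10 ng library after oxidation brought the rises to 567 and 577 at 50 ng and to 335 at 100 ng, and the falls to 283 and to 165 and 169. Leaving out 1 library of the input compared brought the rises as low as 28 at 50 ng and 5 at 100 ng, and the falls as low as 22 and 15. The average falls came to 1080 without the first 10 ng library after oxidation. The interaction of oxidation with input passed for 717 of the 2866 members (25.02%), against 23.1% of all tested sequences. After oxidation 330 members were higher at 10 ng than at 100 ng (background 12.5%) and 932 were lower (background 28.8%). These are 11.5% and 32.5% of the tested members. Leaving out the first 10 ng library after oxidation gave 542 higher and 1425 lower, and leaving out either of 100 ng gave 181 and 153 higher. The interaction count was 1597 and 1359 without either 10 ng library after oxidation and 453 to 474 without any 1 library of 10 or 100 ng before it. Before oxidation 55 members were called between these inputs, 36 higher and 19 lower at 10 ng (background 1.06% and 0.744%, together 1.8%). That count came to 446 and 460 when either of the 10 ng libraries after oxidation was left out, to 1 or 2 without any 1 of the 4 libraries compared, and to 20 or 23 without a library of 50 ng before oxidation or of 100 ng after it. Between 50 and 100 ng limma-trend called 0 members after oxidation and 0 before it (background 0% in both). At an unadjusted p below 0.05 there were 202 after oxidation and 85 before it. Leaving out either 10 ng library after oxidation gave 31 and 34 after oxidation and 7 before it, and leaving out the first of 50 ng after oxidation gave 4. EdgeR called 0 in both, and DESeq2 called 21 after oxidation and 6 before it.

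The calls of single members by last base are given as a description, beside all tested sequences with the same last base. Of 1084 tested members ending in C, 311 rose (28.7%, against 24.3% of all tested sequences ending in C) and 192 fell (17.7%, against 19.6%). Of 160 ending in G, 24 rose (15.0%, against 17.4%) and 60 fell (37.5%, against 29.9%). Of 311 ending in A, 64 rose (20.6%, against 21.3%) and 84 fell (27.01%, against 25.95%), and of 1311 ending in U, 257 rose (19.6%, against 18.9%) and 337 fell (25.7%, against 22.99%). In both sets the share rising was highest for C and lowest for G, and the share falling highest for G and lowest for C, so this order is not particular to the members. The median log2 fold change was 0.15 for members ending in C, -0.68 for G, -0.35 for A and -0.27 for U, beside 0.01, -0.42, -0.23 and -0.18 over all tested sequences.

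The highest members each had their own pattern. The 6 with the highest mean before oxidation matched no annotated transcript in full and are therefore given without a place. They were chosen by that mean, which favours members that were higher before oxidation. The first, of 32 nt and ending in U, had 910 and 873 RPM after oxidation with 10 ng, 3902 and 2635 RPM with 50 ng and 4129 and 4442 RPM with 100 ng. Before oxidation it had 2123 and 2023 RPM with 10 ng, 2574 and 2573 RPM with 50 ng and 2381 and 2325 RPM with 100 ng. It was thus lower than before oxidation at 10 ng and higher at 50 and 100 ng, and its average log2 fold change was -0.01 (limma-trend adjusted p = 0.924).

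The second, of 31 nt and ending in C, had 83.2 and 103 RPM after oxidation with 10 ng, 349 and 240 RPM with 50 ng and 413 and 506 RPM with 100 ng. Before oxidation it had 2222 and 1865 RPM with 10 ng, 1806 and 1742 RPM with 50 ng and 2589 and 2803 RPM with 100 ng. It was lower after oxidation in every library (log2 fold change -3.20 ± 0.11, limma-trend adjusted p = 1.4e-06). A 32 nt member ending in G, the sixth highest, had 71.2 and 29.6 RPM after oxidation at 10 ng and 258 to 613 RPM at 50 and 100 ng, against 582 to 1195 RPM before oxidation. Only its highest value after oxidation reached into the range before it, and its log2 fold change was -1.99 ± 0.22.

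Of the members that could be placed, the largest share came from lincRNAs, long non-coding RNAs that include annotated pachytene precursors. In full, 16242 members (21.4%) matched GENCODE M21 transcripts, with 11.9 ± 0.443% of member RPM after oxidation and 10.9 ± 0.143% before it. Of the tested members 359 matched, 336 of them at a single place. Members that matched a single gene lay in 882 genes, of which 92 reached 10 RPM, and the top 10 genes held 46.7% of the RPM so placed. Sense matches in lincRNA exons held 5.92% of member RPM after oxidation and 5.23% before it, and those in exons of protein-coding genes 2.39% and 2.29%.

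The largest source was Gm21269, a lincRNA gene on chromosome 7 with 715 members. Its members summed to 1517 ± 123 RPM after oxidation and 1001 ± 119 RPM before it (SD, n = 6 each), higher after oxidation in 6 of 6 pairs, with no overlap of the 2 groups. Its divergent neighbour Gm10619, whose annotated start at 73816503 on the minus strand lies beside the Gm21269 start at 73816546 on the plus strand, had 330 members. They summed to 771 ± 67.6 RPM after oxidation and 455 ± 66.4 RPM before it, also without overlap. The 4933440M02Rik locus, a lincRNA gene on chromosome 7, summed to 359 ± 48.7 RPM after oxidation and 197 ± 17.5 RPM before it, without overlap. The 1700001L05Rik gene on chromosome 15 summed to 1168 ± 377 RPM after oxidation and 993 ± 48.6 RPM before it, and its 2 libraries of 10 ng after oxidation, at 633 and 795 RPM, were the lowest of the 12. 1700001L05Rik-31-1 alone had 237 and 202 RPM in these 2 libraries, and 677 to 1020 RPM at 50 and 100 ng after oxidation. It made up much of the gene sum and of this dependence on input. The gene was not summed without this sequence.

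Nemp1, which encodes an inner nuclear membrane protein, went the other way in sum. Its 247 members summed to 214 and 90.4 RPM after oxidation with 10 ng, 193 and 185 RPM with 50 ng and 206 and 201 RPM with 100 ng. Before oxidation they summed to 372 and 316 RPM with 10 ng, 297 and 319 RPM with 50 ng and 258 and 260 RPM with 100 ng. Every library after oxidation lay below every library from before (182 ± 45.8 RPM against 304 ± 42.8 RPM). Nemp1-31-2 alone averaged 18.8 RPM after oxidation and 141 RPM before it, a fall about as large as that of the gene sum. The gene was not summed without this sequence. Members were 17.6% of the 29 to 32 nt sequences of this kind from Nemp1 after oxidation and 31.2% before it. Sequences of this gene shorter than the members thus held a larger share of these reads after oxidation. The form 1 base shorter than Nemp1-31-2 also fell, from a mean of 36.3 RPM before oxidation to 5.29 RPM after it. A shift towards shorter forms of the same start sites is therefore not shown. These gene sums take only members that match 1 gene in 1 orientation, and they were not tested. Of the 92 genes that reached 10 RPM, 13.04% lay wholly above and 3.26% wholly below their level before oxidation on the RPM scale. As shares of piRNA RPM these were 8.70% and 4.35%, and Gm21269 (0.167 ± 0.0137% after oxidation and 0.124 ± 0.0158% before it), Gm10619 (0.0848 ± 0.00791% and 0.0565 ± 0.00868%) and 4933440M02Rik (0.0395 ± 0.0058% and 0.0244 ± 0.00238%) were still without overlap and higher after oxidation. On that scale Nemp1 (0.0199 ± 0.00485% after oxidation and 0.0377 ± 0.00498% before it) was still wholly lower. Per read of methylated spike-ins, 95.7% of the 92 genes lay wholly below their level before oxidation, these 4 among them.

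Among the Nemp1 members, the 2 printed forms of 1 start site were lower after oxidation. Nemp1-31-2, printed above, had 16.2 and 19.2 RPM after oxidation with 10 ng, 12.9 and 13.8 RPM with 50 ng and 16.4 and 34.1 RPM with 100 ng. Before oxidation it had 177 and 158 RPM at 10 ng, 142 and 155 RPM at 50 ng and 107 RPM in both libraries of 100 ng. It was several times lower after oxidation in every library (log2 fold change -2.89 ± 0.19, limma-trend adjusted p = 1.2e-05). Its form 1 base longer, Nemp1-32-13, was at 0 reads in 4 of the 6 libraries after oxidation and at 2.44 and 0.632 RPM in the other two, against 6.40 to 35.9 RPM before it (log2 fold change -3.66 ± 0.36).

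The other large falls had nearly no reads left after oxidation. Like Nemp1-32-13, they were chosen for the size of the fall and reached the minimum of 5 RPM only through the libraries from before oxidation, so their values are given with no test. 1700042G15Rik-32-15 had 0 reads in all 6 libraries after oxidation, against 5.82 to 12.2 RPM before it, where 183 reads were counted. With a floor of 3 reads over the 6 libraries, worth 0.191 RPM, its level of 10.2 ± 2.63 RPM before oxidation was above that floor in every library. Gm18609-32-14, antisense to a processed pseudogene (chr6:128186496-128186527, minus strand), had reads in 1 of 6 libraries after oxidation (0.598 RPM), against 5.81 to 23.3 RPM before it. Gm21269-31-16 had 0 to 1.74 RPM after oxidation and 11.3 to 24.8 RPM before it (log2 fold change -3.41 ± 0.25). It comes from the same gene whose members were higher in sum, so the direction of a gene was not that of all its members.

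Members with large rises were close to their floor before oxidation. They were chosen for the size of that rise and reached the minimum of 5 RPM only through the libraries after oxidation, so their values are a description with no test. Gm10619-31-12 had 11.1 to 48.9 RPM after oxidation and 0 to 4.64 RPM before it (log2 fold change 2.89 ± 0.43). Cep83os-31-11 (chr10:94676227-94676257, minus strand, exon of a bidirectional promoter lncRNA) had 7.58 to 56.0 RPM after oxidation and 0 to 3.58 RPM before it (3.03 ± 0.48). CT025671.4-31-10, antisense to a lincRNA on chromosome 17, had 9.47 to 85.7 RPM after oxidation and 0 to 4.05 RPM before it (3.04 ± 0.36). All 3 were picked among members higher after oxidation in 6 of 6 same-numbered pairs, so that count was set by the choice. Their log2 fold changes stayed positive with the spike-in scale (0.85 for CT025671.4-31-10, 0.84 for Cep83os-31-11 and 0.65 for Gm10619-31-12).

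Among the high members placed once, several were higher after oxidation. Gm21269-32-5 had 450 and 372 RPM after oxidation with 10 ng, 414 and 597 RPM with 50 ng and 496 and 436 RPM with 100 ng. Before oxidation it had 186 and 159 RPM with 10 ng, 312 and 306 RPM with 50 ng and 348 and 358 RPM with 100 ng. The lowest value after oxidation lay just above the highest before it (log2 fold change 0.77 ± 0.11, limma-trend adjusted p = 0.00056; -2.21 with the spike-in scale). CT025671.2-31-3, antisense to a processed pseudogene on chromosome 17, had 118 to 316 RPM after oxidation and 101 to 117 RPM before it (0.84 ± 0.10; -2.13 with the spike-in scale). Tbl2-31-4, in a UTR of Tbl2, had 92.0 to 301 RPM after oxidation and 73.3 to 152 RPM before it (0.80 ± 0.11; -2.16 with the spike-in scale). Gm10619-32-6 had 187 to 279 RPM after oxidation and 102 to 195 RPM before it (0.63 ± 0.12; -2.35 with the spike-in scale and -0.04 with DESeq2).

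Other high members followed the input. 1700001L05Rik-31-1 had 237 and 202 RPM after oxidation with 10 ng, 874 and 677 RPM with 50 ng and 1020 and 1004 RPM with 100 ng. Before oxidation it had 494 and 457 RPM with 10 ng, 605 and 599.5 RPM with 50 ng and 579 and 566 RPM with 100 ng. It was lower after oxidation at 10 ng and higher at 50 and 100 ng, and the interaction passed (limma-trend adjusted p = 0.00095). Its average log2 fold change of 0.02 did not pass and turned to -0.16 when scaled to piRNA reads. Gm30132-32-7 had 12.5 and 0 RPM after oxidation at 10 ng and 146 to 262 RPM at 50 and 100 ng, against 93.2 to 129.6 RPM before it (average log2 fold change -1.04 ± 0.53, not called; 0.81 without the 10 ng libraries). Without the first 10 ng library after oxidation its log2 fold change was -1.66, and without the second it was -0.41, and limma-trend called both. It was also called with DESeq2 (-1.41) and with the spike-in scale (-3.75). Gm41109-32-8 had 10.2 and 0 RPM after oxidation at 10 ng and 49.4 to 127 RPM at 50 and 100 ng, against 29.6 to 73.8 RPM before it (-0.81 ± 0.50, not called; 0.45 without the 10 ng libraries). Without the first 10 ng library after oxidation its log2 fold change was -1.39, which was called, and without the second it was -0.23, which was not. It was also called with DESeq2 (-1.23) and with the spike-in scale (-3.50).

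Among 332 tested members placed once in transcripts and not on chromosome 18, the 3 with the smallest interaction p had 0 reads in both 10 ng libraries after oxidation. They were chosen by that p, which is given as a description. Gm31181-31-18 had 35.6 and 27.2 RPM after oxidation at 50 ng and 28.98 and 35.1 RPM at 100 ng, against 16.5 to 36.4 RPM before it (interaction adjusted p = 0.00045, limma-trend). Pou6f1-32-17, in a UTR of Pou6f1, had 26.3 to 56.5 RPM at 50 and 100 ng after oxidation and 29.8 to 46.4 RPM before it (0.00045). Zfp280b-32-19, antisense to a UTR of Zfp280b, had 39.2 to 68.1 RPM at 50 and 100 ng after oxidation and 19.3 to 45.2 RPM before it (0.00049). A floor of 3 reads in 1 library was worth 1.39 and 1.56 RPM in the 10 ng libraries after oxidation.

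**Figure D4:**
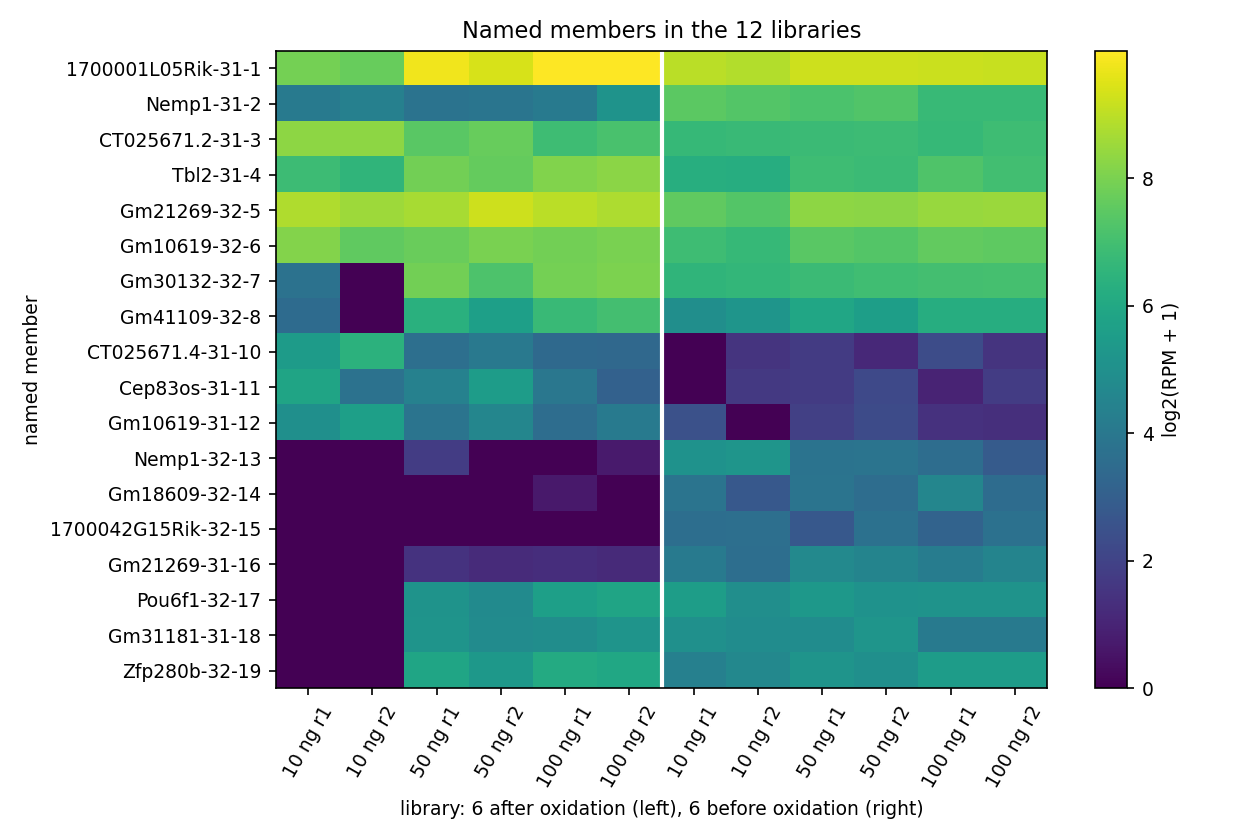
Levels of 18 named members, as log2(RPM + 1), in the 6 libraries after oxidation (left) and the 6 before it (right). The 4 largest falls are dark on the left, 3 members with large rises are dark on the right, and the last 3 members are at 0 in both 10 ng libraries after oxidation.

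Fewer distinct members were detected at 10 ng after oxidation than in any other group. Thinned to 184457 member reads each, the libraries after oxidation held 6117 and 4397 distinct members with 10 ng, 16423 and 16777 with 50 ng and 18074 and 16809 with 100 ng. Before oxidation they held 17760 and 16896 with 10 ng, 21715 and 21780 with 50 ng and 22836 and 22142 with 100 ng. Unthinned, 6164 and 4397 members were detected at 10 ng after oxidation, 17457 to 21014 at 50 and 100 ng after oxidation, and 18178 to 27821 before it. A detected member had a median of 22 and 29 reads in the 10 ng libraries after oxidation, 5 reads in the other 4 after oxidation, and 2 to 4 reads before it. Fewer sequences thus held more reads each.

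The replicates at 10 ng after oxidation shared 1859 members, 30.2% of those in replicate 1 and 42.3% of those in replicate 2. Elsewhere replicates shared 50.5 to 57.4% of their members. The shared members held 57.6 and 63.8% of member RPM at 10 ng after oxidation, against 85.7 to 92.8% in the other groups. Over all libraries 35907 members (47.3%) were seen in 1 library only and held 3.08% of member RPM, while 1250 were seen in all 12 and held 52.3%. The 10 highest members of a library held 8.80 ± 2.94% of member RPM after oxidation and 12.4 ± 0.795% before it.

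**Figure D5:**
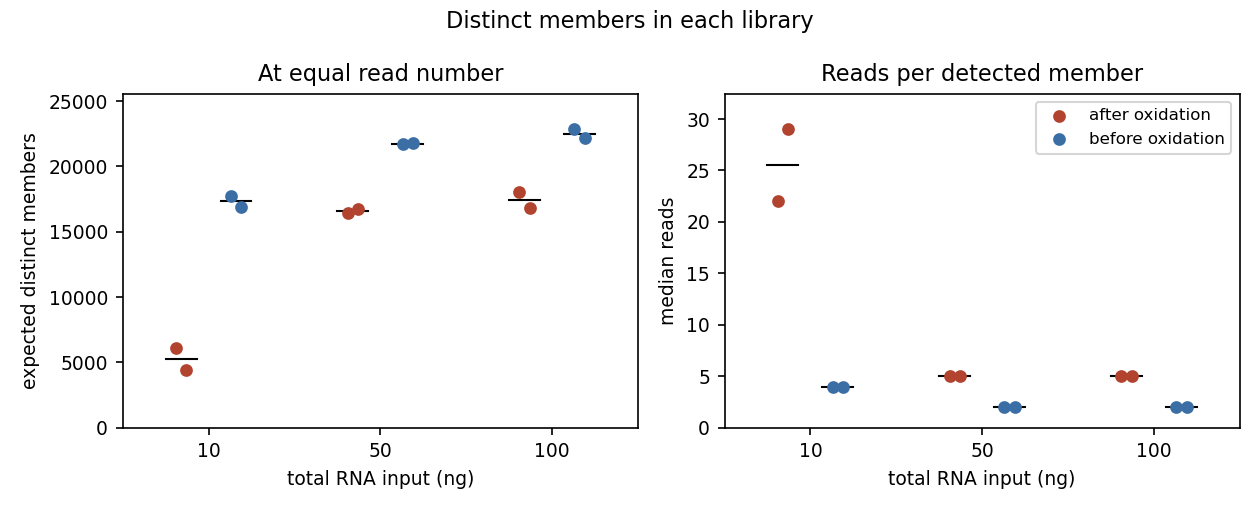
Expected number of distinct members at 184457 member reads, and median reads per detected member, by total RNA input in ng. Each point is 1 library and each bar the mean of 2 replicates; after oxidation at 10 ng the libraries hold 6117 and 4397 members with medians of 22 and 29 reads.

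The base make-up of the members shifted towards U and away from G. Weighted by RPM, GC was 39.5 ± 0.342% after oxidation and 41.6 ± 0.401% before it, lower after in 6 of 6 pairs. G made up 19.2% of bases after oxidation and 20.98% before it, and U 30.8% and 28.4%. At base 10, where A is barred by the choice of members, U stood in 39.3% of RPM after oxidation and 32.3% before it, G in 35.4% and 39.4%, and C in 25.3% and 28.3%. At base 2, A stood in 37.8% after oxidation and 34.4% before it, and G in 30.97% and 36.0%. The 29 and 30 nt sequences of the same kind also had lower GC, 41.0% after oxidation and 42.5% before it. These shares were not tested.

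Members that rose held more U and less G than members that fell, as a description with no test. The median GC was 38.7% in members that rose and 41.9% in those that fell, the median share of U was 32.3% and 25.8%, and that of G 18.8% and 22.6%. The median share of C was 19.4% in both. A predicted 3′ hairpin (a stem of at least 4 base pairs in the minimum free energy fold, with the 3′ arm ending within 5 bases of the 3′ end and the other arm at base 11 or later) was found in 614 of 2866 tested members (21.4%). It was found in 16.5% of those that rose, 21.6% of those not called and 25.9% of those that fell. Members with the hairpin had a median log2 fold change of -0.37, with 108 rising and 174 falling, and members without it one of -0.06, with 548 rising and 499 falling.

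Among the 100 members with the highest log2 fold changes (2.57 to 4.17), 24 had the hairpin and the median GC was 35.5%. Among the 100 with the lowest (-5.07 to -2.33), 46 had the hairpin and the median GC was 48.4%. Both sets were picked by the fold change itself. Members near the minimum of 5 RPM can pass it only through the libraries in which they are high. The 2 sets are thus a description with no test. 1700042G15Rik-32-15, printed above and without reads after oxidation, folded at -9.5 kcal/mol with 1 base unpaired at its 3′ end, and Gm31181-31-18 had no predicted fold (0 kcal/mol). Across the 2866 members the log2 fold change correlated with the share of U at a Spearman rho of 0.30, with GC at -0.26 and with the folding energy at 0.13. By input, rho for the folding energy was 0.03 with 10 ng, 0.17 with 50 ng and 0.20 with 100 ng. For U it was 0.28 with 10 ng, 0.26 with 50 ng and 0.21 with 100 ng, and for GC -0.20 with 10 ng, -0.26 with 50 ng and -0.23 with 100 ng. These correlations are across sequences of the same libraries, which are no replicates. All tested sequences had the same order, with the hairpin in 12.4% of those that rose and 20.1% of those that fell, so it is not particular to the members.

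Forms of 1 start site tended to move together, which is a description across sequences of the same libraries. Most member RPM lay in sequences whose form 1 base shorter was also in the table: 92.7% after oxidation and 94.6% before it for 31 nt, 91.4% and 93.5% for 32 nt. In 298 pairs of a 32 nt member and its 31 nt form, both tested, the log2 fold changes correlated at r = 0.64. Of these pairs 33 rose together, 49 fell together and 8 were called in opposite directions, while 132 had 1 form called and 76 none. In 972 pairs of a 31 nt member and its 30 nt form, r was 0.68, with 164, 121 and 31 pairs, and 369 and 287 with 1 form or none called. In 1113 pairs of 30 and 29 nt sequences of the same kind r was 0.65, so this is not particular to the members. The printed Nemp1 pair was lower together, and the printed Gm10619 pair was higher together. In each of these pairs 1 form was named for the size of its change, so its direction was set by the choice. The printed pairs therefore add nothing to the correlations above. The median log2 ratio of the 32 nt to the 31 nt form was -0.68 after oxidation and -0.50 before it. For the 9 pairs whose longer form ended in G it was -3.55 after oxidation and -1.77 before it.

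Last bases outside the transcript were rare. Among members that matched a transcript in full or in all but the last base, those with an unmatched last base held 0.095 ± 0.058% of RPM after oxidation and 0.192 ± 0.047% before it. The difference passed the exact permutation test (n = 6 each, 2-sided p = 0.00926, the smallest it can give). When the last 1 or 2 bases could differ, the shares were 0.258% after oxidation and 0.407% before it (exact permutation p = 0.0185). Only 77 sequences carried the first of these shares. A base past the end of a transcript, a misread base or one that differs from the reference cannot be told apart from an added base.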

How the data were processed

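The deposited piRNA table gives RPM values per sequence, made by the authors; per the submitters' processing notes Bowtie (version not given) and the builds mm10 and hg38 were used, and what hg38 served for is not stated. Spike-ins were taken from a second deposited table, of read counts. Whole reads were recovered from the RPM steps (100% of values within 0.01 of a read), and 0 per-sample columns were left unused. Intervals between replicates cover technical spread only. Levels were summed per library over all members; shares were tested by exact permutation of the oxidation labels within inputs. Classes (length, first base, base 10, last base; mean of at least 50 RPM when scaled to piRNA reads alone) and single sequences (mean of at least 5 RPM; the values nearest the threshold were 5.002 and 4.999 RPM) entered limma-trend (limma 3.58.1 in R 4.3.3) as log2(value + 1), with 6 group means, with Benjamini-Hochberg adjustment; the pseudocount understates changes of low sequences. Alternatives used edgeR 4.0.16 and DESeq2 1.42.0 on the recovered reads, other scales, pseudocounts (0.1 and 10), minimums and left-out libraries. Folds came from ViennaRNA 2.7.2.

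Named members were placed once in GENCODE M21 transcripts and not on chromosome 18: for each length the 4 highest before oxidation, over both the 4 largest rises and 4 largest falls that moved alike in 6 of 6 same-numbered pairs, and the 3 with the smallest interaction p. 1 member that this rule names is not reported here. The 6 members highest before oxidation, which have no place, were added after their values were seen. Members, lists and tests were chosen with earlier results of these data known. Scripts were tested on simulated data.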

Additional observations from a re-analysis of the deposited data

Results flagged for a closer look

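Several results differed between inputs by the test of the oxidation by input interaction (limma-trend, adjusted p). For the classes by last base the adjusted p was 0.00204 for 31 nt ending in A, 0.0486 for 31 nt ending in G, 0.00077 for 31 nt ending in U, 0.00236 for 32 nt ending in A and 0.00027 for 32 nt ending in U. Among single members the interaction passed for 717. Among the named ones its adjusted p was 0.00045 for Pou6f1-32-17 and for Gm31181-31-18, 0.00049 for Zfp280b-32-19, 0.00095 for 1700001L05Rik-31-1, 0.00978 for CT025671.2-31-3, 0.0184 for Gm30132-32-7 and 0.0291 for CT025671.4-31-10. Pou6f1-32-17, Gm31181-31-18 and Zfp280b-32-19 were chosen by that p, and CT025671.4-31-10 for the size of its rise. CT025671.2-31-3 had 316 RPM in both libraries of 10 ng after oxidation and 118 to 204 RPM at 50 and 100 ng, against 101 to 117 RPM before oxidation. CT025671.4-31-10 had 43.9 and 85.7 RPM after oxidation at 10 ng and 9.47 to 15.6 RPM at 50 and 100 ng, against 0 to 4.05 RPM before it. These 2 were highest, and the other 5 lowest, in the 10 ng libraries after oxidation, which also held the fewest distinct members. The part of that lower number in these results was not tested.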

How the results depend on the processing

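The replicates are technical and 2 per group, so limits of depth apply most to the 10 ng libraries after oxidation, where 1 read was worth up to 0.520 RPM and a value of 0 allowed up to 1.56 RPM. Leaving out all 10 ng libraries was chosen after seeing the data; the other alternatives are those listed with the methods. The cause of a change was not tested except where fewer libraries or sequences entered. Same-numbered replicates did not deviate together (r between -0.07 and 0.02 over members), so the numbers do not pair the libraries. With a replicate block the ratio of 32 to 31 nt stayed at -0.16 with an adjusted p of 0.125, the smallest it allows; 40 members were higher at 100 ng and 25 were called between 10 and 100 ng before oxidation, and the block changed no other side of a threshold and moved no other count by over 1.5 times.

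The share of the members, after minus before oxidation, was -0.02 percentage points as reported and 0.506 without the 10 ng libraries, 1.70 with each distinct sequence counted once and -0.844 with sequences of at least 5 RPM alone. On a log2 scale it was 0.17 for RPM as deposited and -2.82 per methylated spike-in read. Leaving out 1 library gave -0.0812 to 0.040. The 31 nt difference was 0.201 as reported, -0.0326 as a share of 26 to 32 nt sequences beginning with U, 1.65 with each sequence counted once, -0.442 for at least 5 RPM, 0.20 (log2) for RPM and -2.78 (log2) per spike-in read. The 32 nt difference was -0.222 as reported, 0.0326 without the 10 ng libraries, 0.0461 with each sequence counted once, 0.043 (log2) for RPM and -2.95 (log2) per spike-in read. The log2 ratio of 32 to 31 nt was -0.17 for at least 5 RPM (not called), -0.058 without the 10 ng libraries (not called) and -0.18 to -0.14 with 1 library left out.

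The counts of single members moved most. Where no share over all tested sequences is given below, a count shows only how it moved with the setting. With no minimum, 308 were higher on average (0.405% of the members, against 0.208% of all sequences). At 10 ng 325 were higher and 435 lower (0.428% and 0.573%, against 0.247% and 0.351%). There were 18 and 8 at 50 ng (background 0.0143% and 0.00579%) and 11 and 3 at 100 ng (background 0.00805% and 0.00314%). The interaction called 96 (0.126%, against 0.0516%). After oxidation 111 were higher and 292 lower at 10 than at 100 ng (0.146% and 0.384%, against 0.097% and 0.179%). Before it 12 were called between these inputs (background 0.00992%). With a minimum of 50 RPM, which leaves fewer members, 73 were higher and 95 lower on average (28.1% and 36.5%, against 29.1% and 32.5%). At 10 ng 55 were higher and 154 lower (21.2% and 59.2%, against 24.7% and 52.8%). At 50 ng 58 were higher and 25 lower (22.3% and 9.62%, against 21.9% and 8.72%). At 100 ng 17 were lower (6.54%, against 6.48%). The interaction called 149. After oxidation 31 were higher and 153 lower at 10 than at 100 ng (11.9% and 58.8%, against 16.7% and 55.1%). Scaled to methylated spike-ins, 35 were higher and 2469 lower on average, 60 and 2245 at 10 ng, 12 and 1945 at 50 ng, 3 and 1825 at 100 ng, 37 higher at 10 than at 100 ng after oxidation and 143 called before it. With edgeR, 322 were higher at 10 ng, 86 at 50 ng, 20 at 100 ng and 60 at 10 than at 100 ng after oxidation, and 27 were called before it. With DESeq2, 1140 were lower on average, 382 higher at 10 ng, 237 lower at 50 ng, 142 lower at 100 ng, 175 higher at 10 than at 100 ng after oxidation and 177 called before it, and 21 and 6 were called between 50 and 100 ng after and before oxidation. With only the 4 libraries of an input, 1024 were called at 10 ng (312 of them higher), 569 at 50 ng (404 higher) and 748 at 100 ng (532 higher), against 1571, 303 and 110 with all libraries in 1 fit. Without the 10 ng libraries, 338 were lower on average, 579 higher and 271 lower at 50 ng, 325 higher and 162 lower at 100 ng, and 25 and 2 were called between 50 and 100 ng after and before oxidation. Centring gave 138 higher at 50 ng and 33 at 100 ng, and scaling to piRNA reads 40 higher at 100 ng. A pseudocount of 0.1 gave 63 lower at 50 ng (background 2.36%) and 31 at 100 ng (background 1.51%). One of 10 gave 81 lower at 100 ng (background 2.76%) and 89 called between 10 and 100 ng before oxidation (background 3.21%). The median log2 fold change of all tested sequences was -0.30 when scaled to piRNA reads and -0.34 when centred.

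With 1 library left out, members higher on average numbered 559 to 904 and lower 522 to 1080; at 10 ng 472 to 798 and 779 to 1393; at 50 ng 28 to 577 and 22 to 283; and at 100 ng 5 to 335 and 15 to 169. The interaction called 453 to 1597, and 10 against 100 ng after oxidation 153 to 542 higher and 722 to 1425 lower. Before oxidation this comparison called 1 to 460. Between 50 and 100 ng, 0 to 34 were called after oxidation and 0 to 7 before it.

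Of the 8 classes, 0 were higher and 8 lower with the spike-in scale, and 2 were lower with RPM as deposited, with edgeR and without the 10 ng libraries. The interaction called 8 with the spike-in scale. Between 10 and 100 ng before oxidation, 0 were lower with the spike-in scale and 6 with edgeR, and 1 to 3 with 1 library left out (1 without the second library of 100 ng before oxidation).

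Of 404 refits of the named members, 367 kept direction and side of the threshold, 12 lost the call, 8 gained it and 17 changed sign. 1700001L05Rik-31-1 changed to -0.16 when scaled to piRNA reads, -0.18 centred, -2.96 with spike-ins, -0.42 with edgeR and -0.66 with DESeq2, and spanned -0.041 to 0.081 with 1 library left out. With spike-ins CT025671.2-31-3 was at -2.13, Tbl2-31-4 at -2.16, Gm21269-32-5 at -2.21 and Gm10619-32-6 at -2.35 (-0.036 with DESeq2). Without the 10 ng libraries Gm30132-32-7 was at 0.81, Gm41109-32-8 at 0.45, Pou6f1-32-17 at 0.19, Gm31181-31-18 at 0.43 and Zfp280b-32-19 at 0.51.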
